A study of Mus musculus with 6 samples.

Results

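Interleukin 6 family ligands and receptors were represented by 10 genes: the ligands Il6, Lif and Osm, the receptor chains Il6ra, Il11ra1, Lifr, Osmr and Il6st, and the intracellular pair Stat3 and Socs3. Members were all non-control probes whose accession in the scanner files is a RefSeq transcript of one of these genes, which gave 13 of 55681 probes, or 10 of 37163 genes and unnamed transcripts. Lifr had 3 probes, Stat3 had 2 and each other gene had 1. The samples were total RNA from cells sorted from the bone marrow of C57BL/6 mice, labelled as bone marrow mesenchymal stem cells. The old group was 3 samples from mice aged 24 months, and the young group was 3 samples from mice aged 3 months. Each sample was hybridised to 1 array in 1 colour (Cy3). The labels name neither the sorting markers nor how many animals gave each sample, and no genotype or treatment is given for either group. Setting old against young addresses how transcripts of these cells differ with age.

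Cytokines of this family share the signalling chain gp130, encoded by Il6st. Interleukin 6 and interleukin 11 first bind their own receptor chains (Il6ra, Il11ra1) and then recruit gp130, whereas leukaemia inhibitory factor pairs gp130 with Lifr and oncostatin M pairs it with Osmr, or in part with Lifr. Janus kinases bound to these chains then activate the transcription factor Stat3, which induces Socs3, an inhibitor that binds gp130 and its kinases and limits the signal. In bone marrow the family is known for acting on osteoblast and osteoclast formation and on blood cell production.

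Signals below are log2 values relative to the 75th percentile of the same array, so 0 is a probe as bright as that percentile. Values of different probes cannot be set against each other, because each probe binds its target with its own strength. Whether a spot stood well above background was the scanner software's own call. That percentile was an intensity of 206 to 285 on the old arrays and 277 to 349 on the young arrays, and 50.9% to 53.4% of probes were above background by that call on old arrays, against 55.3% to 60.0% on young arrays. All 6 arrays lay on 1 slide under 1 scan, with the old arrays in one slide row and the young arrays in the other, so slide row and age cannot be told apart. Markers of blood cells were measured more completely than markers of the labelled cell type. On every one of the 6 arrays, all 12 leukocyte, 10 of 10 neutrophil and 9 of 9 erythroid markers passed that call, against 7 of 18 markers of mesenchymal and perivascular stroma. For other blood cells it was 7 of 10 B cell, 7 of 9 monocyte and macrophage, 8 of 9 T cell and 7 of 8 megakaryocyte markers. The 7 stromal markers were Cxcl12, Lepr, Eng, Thy1, Vcam1, Col1a2 and Fn1. Pdgfra, Pdgfrb, Prrx1, Twist1 and Foxc1, which mark mesenchymal cells, passed the call on no array.

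In old samples 2 of the 7 tested members fell, Il6ra and Il6st, which encode the 2 chains of the interleukin 6 receptor. None rose. Over all 23266 genes tested, 8.01% were called in either direction, 4.04% lower (939 genes) and 3.98% higher (925 genes) in old samples (limma, Benjamini-Hochberg adjusted p under 0.05). That split depends on the scaling, with 933 lower and 596 higher from the deposited values, and 1105 lower and 1806 higher with normexp background correction. A gene was tested by its brightest probe, provided that 3 or more of the 6 arrays had it well above background. Il6, Lif and Osmr did not reach that number. Il6st and Lifr reached it through the young arrays alone. A filter passed only in the group where a gene is high favours a difference, so the count of 2 is no support for a family-wide change. Among the 5 members well above background on all 6 arrays, 1 fell. With the test limited to the 20369 genes measured on all 6 arrays, 845 genes were called lower and 1263 higher. In 3 of the 5 members the groups did not overlap, with old below young, as in 11.6% of those 20369 genes. The median log2 fold change of the 5 was -1.05, against 0.08 over those 20369 genes. That median is the value of Osm, which was not called, and the 5 ranged from -1.72 (Il6ra) to 0.15 (Il11ra1).

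**Figure D1:**
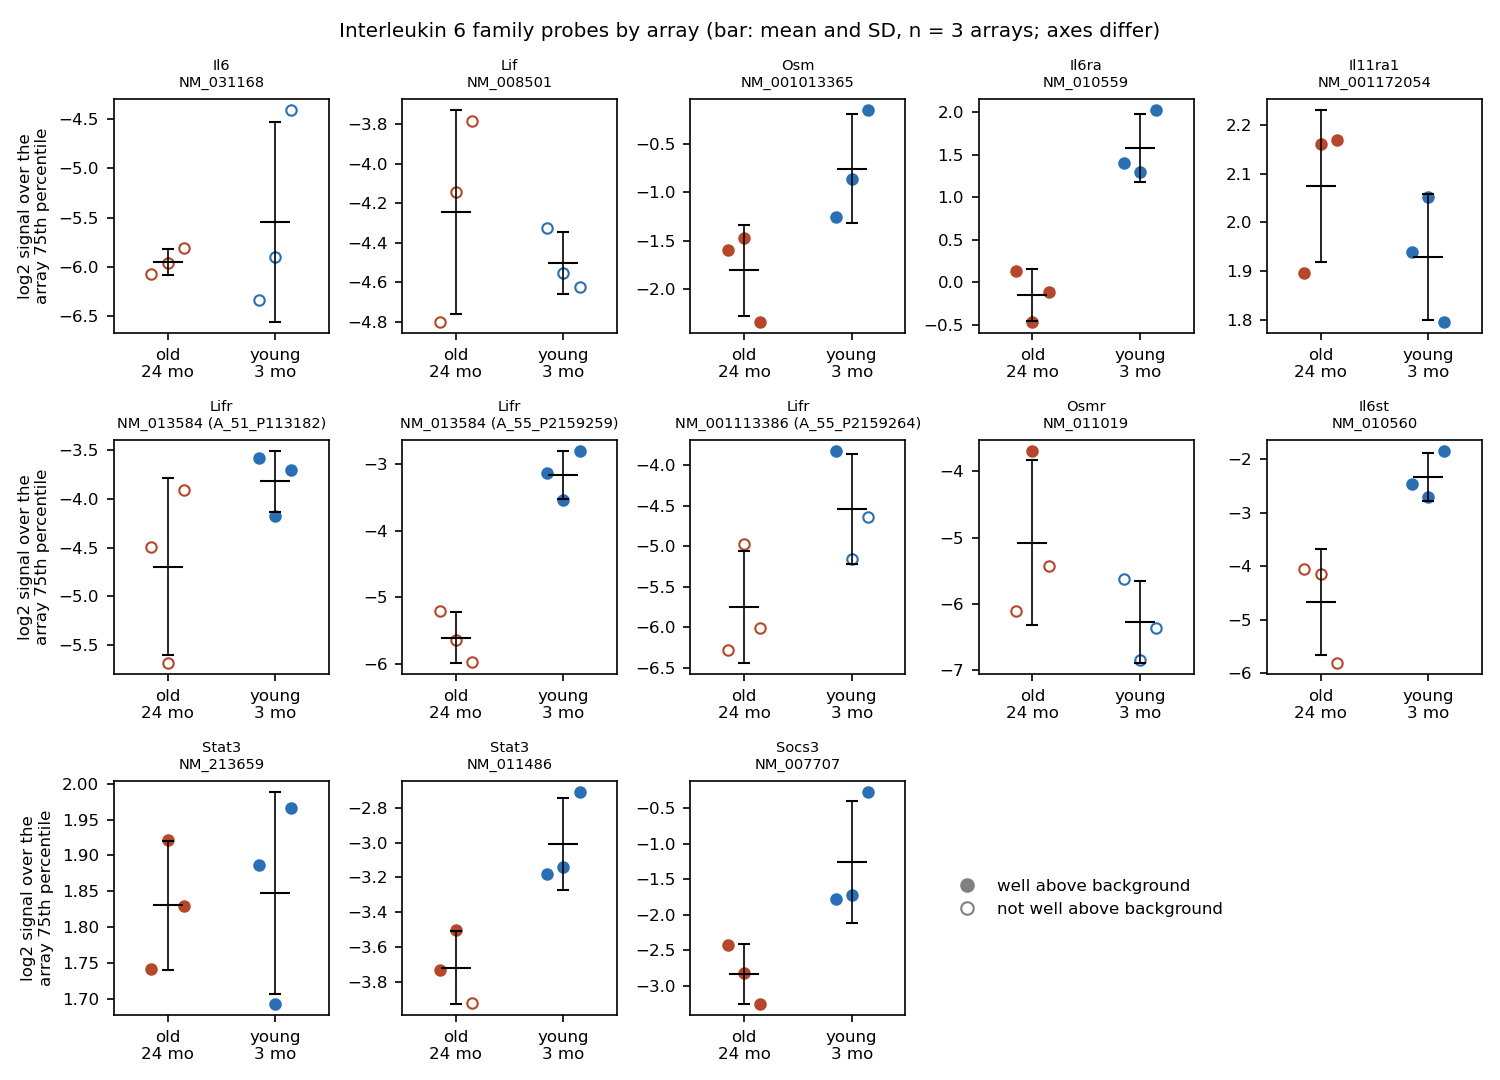
Signal of the 13 member probes on each array, as log2 over the array's 75th percentile (y axis, which differs between panels), with the 3 old samples left and the 3 young samples right. Filled points were well above background, open points were not, and bars give mean and SD; in Il6ra and Il6st every old point lies below every young point, and in Il6st every old point is open.

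Of the 3 ligands, only Osm could be tested. Osm encodes oncostatin M, which is made mainly by activated myeloid and T cells. Its signal was -1.60, -1.48 and -2.35 in old replicates 1 to 3 and -1.25, -0.86 and -0.14 in young replicates 1 to 3. Every old value lay below every young value, and young replicate 3 was the highest. The log2 fold change was -1.05 ± 0.35 (SE; 95% interval -1.90 to -0.20), which did not pass (limma adjusted p = 0.119), and it was -0.63 with normexp. Il6, the founding cytokine of the family, had 2 spots and was not well above background on any array. Its signals ran from -6.07 to -5.81 in old samples and from -6.34 to -4.40 in young samples. Lif, which encodes leukaemia inhibitory factor, was not well above background on any array either, with -4.80 to -3.78 in old and -4.62 to -4.33 in young samples. For both ligands the groups overlapped, and a change in their low level was not detectable on these arrays.

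With each gene tested by its brightest probe, the receptor chain of interleukin 6 had the smallest p of the family. Il6ra (NM_010559, chromosome 3) encodes the chain that binds the ligand and that can also be shed as a soluble receptor. Its processed intensity was 313, 162 and 190 in old replicates 1 to 3, against 880, 856 and 1133 in young replicates 1 to 3. Relative to the 75th percentile this was 0.14, -0.47 and -0.11 in old samples and 1.40, 1.30 and 2.03 in young samples, with no overlap. The mean was -0.15 ± 0.30 in old and 1.57 ± 0.40 in young samples (SD, n = 3 each). Il6ra fell by 1.72 ± 0.24 on the log2 scale (SE; 95% interval -2.32 to -1.13, limma adjusted p = 0.025). Its log2 fold change stayed between -1.87 and -1.47 over 17 alternative settings, and it passed in 12 of them. The call ended without old replicate 2 (limma adjusted p = 0.0685), old replicate 3 (0.0788) or young replicate 2 (0.0647), and without the filter on dim probes (0.0617).

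Il6st (NM_010560, chromosome 13), the gp130 gene, stood well above background in all 3 young samples and in no old one. Its signal was -4.05, -4.15 and -5.81 in old replicates 1 to 3 and -2.46, -2.70 and -1.84 in young replicates 1 to 3. All old values lay below all young values, and since they are background readings they give only a limit. Il6st was at least 3.3-fold lower in old samples (limma adjusted p = 0.047). That bound sets the young mean against the mean, over the old arrays, of the lowest signal called well above background or of the probe's own signal, whichever was higher. It compares means and takes no account of the spread between arrays. The call passed narrowly, and it held in 5 of 16 alternative settings. It ended with quantile normalization (limma adjusted p = 0.0672), cyclic loess (0.0559) and the authors' deposited values (0.0518). It also ended without the filter on dim probes (0.0617), and without any 1 of the 6 arrays (0.0598 to 0.124). Normexp background correction, which adds an offset of 50, moved the fitted log2 fold change, which is no bound, to -0.52 against -2.33 and kept the call (limma adjusted p = 0.0403).

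**Figure D2:**
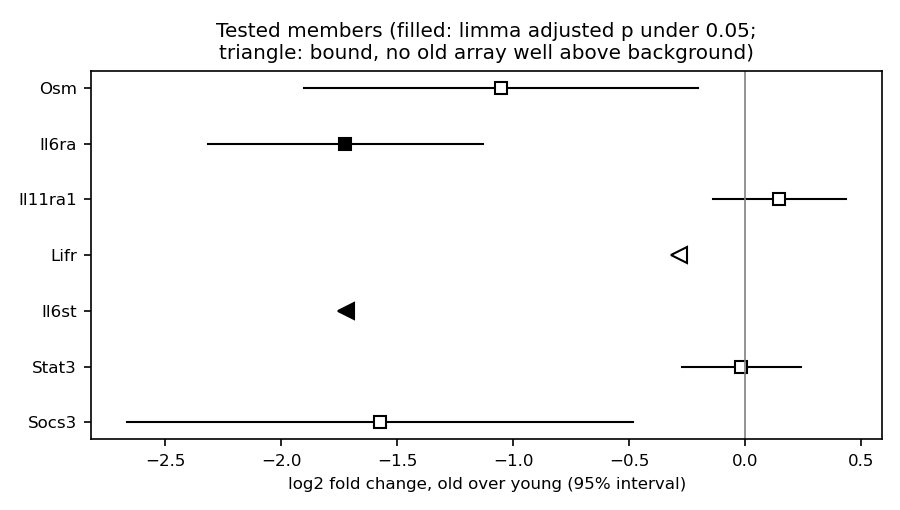
Log2 fold change, old over young (x axis), of the 5 members measured on all 6 arrays (squares) with the 95% interval from limma (lines), and the bound for Lifr and Il6st (triangles pointing to lower values), which no old array had well above background. Filled symbols, Il6ra and Il6st, mark an adjusted p under 0.05, and the intervals of Il11ra1 and Stat3 include 0. The bound takes no account of the spread between arrays. The interval of Lifr, not drawn, also includes 0, so its triangle sets no minimum fall.

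The sequences before the start sites of Il6ra and Il6st are shown because these were the 2 members called, Il6st with old readings at background. They are the 250 bases upstream of the RefSeq start (GRCm38.p6), at chr3:89913197-89913446 on the minus strand and chr13:112463820-112464069 on the plus strand, written 5′ to 3′ along the gene. Neither holds the element TTCNNNGAA that Stat factors bind, a palindrome that reads the same on both strands.
Il6ra: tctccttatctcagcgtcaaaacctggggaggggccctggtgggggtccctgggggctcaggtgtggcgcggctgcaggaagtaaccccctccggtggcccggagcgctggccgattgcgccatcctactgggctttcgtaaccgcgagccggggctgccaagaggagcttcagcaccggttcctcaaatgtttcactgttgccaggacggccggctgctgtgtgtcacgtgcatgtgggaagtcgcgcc
Il6st: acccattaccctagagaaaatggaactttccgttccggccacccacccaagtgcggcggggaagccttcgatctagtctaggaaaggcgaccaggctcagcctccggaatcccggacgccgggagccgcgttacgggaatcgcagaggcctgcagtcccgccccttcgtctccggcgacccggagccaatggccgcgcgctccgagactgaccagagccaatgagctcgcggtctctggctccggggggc

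Lifr, the signalling chain for leukaemia inhibitory factor, had 3 probes whose values did not all move alike. The probe used for the test (A_51_P113182, NM_013584) read -4.49, -5.69 and -3.91 in old replicates 1 to 3 and -3.58, -4.18 and -3.70 in young replicates 1 to 3. These groups overlapped. The signal was at least 1.22-fold lower in old samples by the same bound as for Il6st, and the difference did not pass (limma adjusted p = 0.265). The fitted log2 fold change was -0.87, and 0.17 with normexp. A second probe of the same transcript (A_55_P2159259) read -5.21, -5.64 and -5.97 in old samples and -3.14, -3.54 and -2.82 in young samples, with no overlap. When each of 31286 probes was tested on its own, this probe was called lower, at least 2.06-fold (limma adjusted p = 0.0214), as were 3.77% of all probes, with 4.03% called higher and 7.80% called in either direction. Neither probe was well above background on any old array, and both were on all 3 young arrays. Both thus passed the filter through the young arrays alone, so the call of the second is no support for a fall. The third probe, for NM_001113386, was well above background only on young replicate 1. With the mean of the 3 probes in place of the brightest, the difference passed (limma adjusted p = 0.0285). All old readings were still at background, so that call is no support either.

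Il11ra1 encodes the chain that binds interleukin 11. Its signal was 1.89, 2.16 and 2.17 in old replicates 1 to 3 and 1.94, 2.05 and 1.79 in young replicates 1 to 3, and the groups overlapped. The log2 fold change was 0.15 ± 0.12 (SE; 95% interval -0.14 to 0.43, limma adjusted p = 0.463), so a fall of the size seen in Il6ra lay outside its interval. The mouse genome holds a close copy of this gene, Il11ra2, and whether the probe also binds its transcript was not tested. Osmr, the oncostatin M receptor chain, was well above background on old replicate 2 alone, at -3.68, with -6.11 and -5.43 in old replicates 1 and 3. Young samples read -5.62, -6.86 and -6.36, none well above background, and the gene was not tested.

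Stat3, the transcription factor downstream of gp130, was measured by 10 repeated spots of 1 probe (NM_213659) on each array. The spots of an array had an SD of 0.05 to 0.09 on the log2 scale. Their mean was 1.74, 1.92 and 1.83 in old replicates 1 to 3 and 1.89, 1.69 and 1.97 in young replicates 1 to 3, which overlap. The log2 fold change was -0.02 ± 0.11 (SE; 95% interval -0.27 to 0.24, limma adjusted p = 0.931). A second probe, for NM_011486, read -3.73, -3.50 and -3.92 in old samples and -3.18, -3.14 and -2.71 in young samples, without overlap. Tested on its own it differed by -0.71 ± 0.17 (SE) on the log2 scale and did not pass (limma adjusted p = 0.0626). Old replicate 3 was not well above background for that probe.

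Socs3 (NM_007707, chromosome 11), the feedback inhibitor, read -2.42, -2.81 and -3.26 in old replicates 1 to 3 and -1.78, -1.72 and -0.27 in young replicates 1 to 3. Every old value was below every young value, and young replicate 3 stood above the other young samples. The log2 fold change of -1.57 ± 0.45 (SE; 95% interval -2.67 to -0.48) did not pass (limma adjusted p = 0.0855). It passed in 1 of 17 alternative settings, eBayes with trend (0.0362), and was -1.08 without young replicate 3 and -0.58 with normexp. Its upstream sequence (GRCm38.p6, chr11:117969367-117969616, minus strand) is shown because it was the one member promoter with the Stat element, among 11 start sites of the 9 members in the table. The capitals mark the element TTCNNNGAA, whose first base lies at -154, counted back from -1 at the base before the start. The stricter form TTCCNGGAA, which overlaps it by design, was in none of the 11. Of 32851 mouse start sites, 7.02% held the first form and 0.913% the second in the same window.
Socs3: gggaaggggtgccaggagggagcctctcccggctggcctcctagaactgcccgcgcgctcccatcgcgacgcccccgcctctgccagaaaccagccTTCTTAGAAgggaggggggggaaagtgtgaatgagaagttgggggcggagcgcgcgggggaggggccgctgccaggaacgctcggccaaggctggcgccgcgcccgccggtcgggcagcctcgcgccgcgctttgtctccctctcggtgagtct

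**Figure D3:**
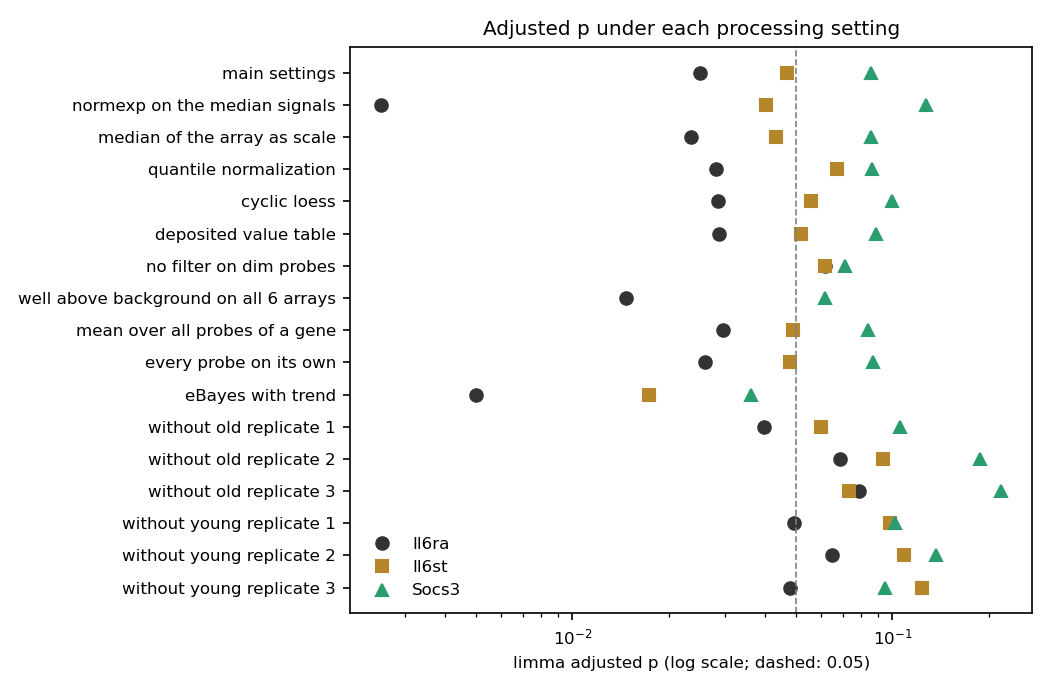
Limma adjusted p (x axis, log scale) of Il6ra (circles), Il6st (squares) and Socs3 (triangles) under the main settings and the alternatives listed on the y axis. The dashed line marks 0.05. Il6ra lies left of it in most settings, Il6st right of it in most, and Socs3 left of it only with eBayes with trend. The setting with the replicate number as a block is not drawn.

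Markers of blood cells differed between the ages in the same arrays. For the counts of calls below, 4.04% of all tested genes were called lower and 3.98% higher. The 12 leukocyte markers had a median log2 fold change of -1.40, with 9 called lower. Their summed signal, in multiples of the 75th percentile, was 68.0 to 83.3 in old samples and 133 to 244 in young samples. Monocyte and macrophage markers (7 of 9 tested called lower) summed to 8.19 to 9.22 in old and 15.1 to 27.1 in young samples, and neutrophil markers (4 of 10) to 1283 to 1582 in old and 1892 to 2783 in young samples. B cell markers (7 of 9) summed to 6.35 to 12.6 in old and 36.0 to 54.8 in young samples. Of 11 tested stromal markers 4 were called lower and 1, Lepr, higher, and 9 had negative log2 fold changes, with a median of -1.79. That median is the value of Dcn, well above background on 1 of 3 old arrays. Col1a1, called lower, and Kitl passed the filter through the young arrays alone, so they are no support for a fall. Only 7 stromal markers were well above background on all 6 arrays. Stromal sums were 36.3 to 42.6 in old and 28.4 to 46.0 in young samples, and without the leptin receptor gene Lepr, left out after its values were seen, 10.4 to 12.4 in old and 16.2 to 32.6 in young samples. Sums overlapped for erythroid markers (548 to 632 in old, 489 to 716 in young samples; 0 of 9 called), T cell markers (20.4 to 23.9 in old, 17.8 to 22.9 in young samples; 1 of 9 lower and 2 higher) and megakaryocyte markers (17.8 to 51.9 in old, 12.3 to 39.9 in young samples; 0 of 8 called). Osteoblast markers (3 of 6 tested lower, 1 higher) summed to 0.714 to 0.866 in old and 2.66 to 16.7 in young samples, and endothelial markers (0 of 4 lower, 1 higher) to 36.8 to 54.6 in old and 23.7 to 28.0 in young samples. Only 2 osteoblast and 2 endothelial markers were well above background on all 6 arrays. Young replicate 3 had the highest young value in 12 of 12 leukocyte markers and in 5 of the 7 tested members. In bulk samples fewer cells of a type and less RNA per cell cannot be told apart, and the part of cell composition in the member values was not tested.

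Set against the mean of the 12 leukocyte markers on the same array, the members differed in whether old and young samples still separated. The difference for Il6ra was -1.61, -2.10 and -1.56 in old replicates 1 to 3 and -1.14, -1.40 and -1.29 in young replicates 1 to 3. Old values were again below all young values, but the gap between the means was -0.48 log2 units. Il6st had -5.79, -5.78 and -7.26 in old and -5.00, -5.40 and -5.16 in young samples, also without overlap, with old values at background. Osm and Socs3 overlapped: Osm ranged from -3.80 to -3.11 in old and from -3.79 to -3.46 in young samples, and Socs3 from -4.71 to -4.16 in old and from -4.42 to -3.59 in young samples. Lifr overlapped too, from -7.32 to -5.36 in old and from -7.02 to -6.11 in young samples. Stat3 and Il11ra1 lay higher in old samples on this scale, with Stat3 at -0.0019 to 0.38 in old and -1.35 to -0.65 in young samples. Il11ra1 was at 0.15 to 0.72 in old and -1.52 to -0.60 in young samples. These differences are a description with no test, since the markers were themselves lower in old samples.

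**Figure D4:**
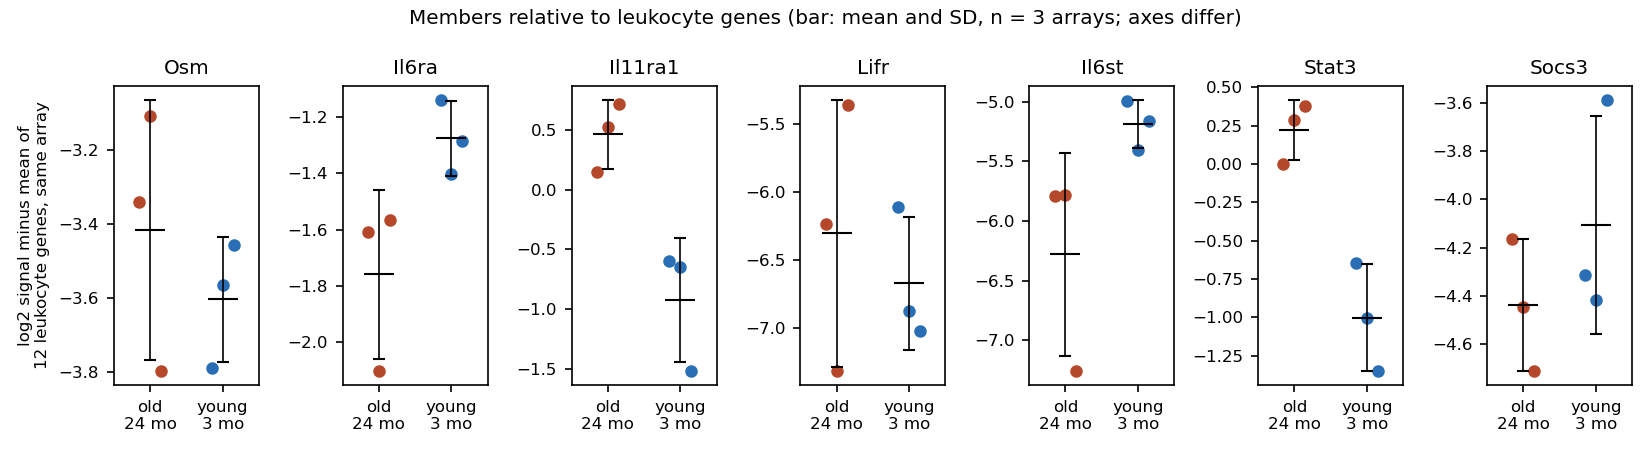
Log2 signal of each tested member minus the mean log2 signal of 12 leukocyte genes on the same array (y axis, which differs between panels), old samples left and young samples right, with mean and SD over 3 arrays. The groups overlap for Osm, Lifr and Socs3, old values are lower for Il6ra and Il6st, and old values are higher for Il11ra1 and Stat3.

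The rest of the pathway was followed in 5 lists of 83 genes, of which 82 were on the array and 74 were tested. In old samples 11 fell and 2 rose, which is 14.9% lower and 17.6% in either direction, against 4.04% and 8.01% of all tested genes. The lists were chosen with earlier results of these data known, so these shares are a description and no test of the pathway. Socs2, among the 11, passed the filter through the young arrays alone. The median log2 fold change of the 74 genes was -0.20, against 0.07 over all tested genes. All 13 calls ended without old replicate 2, old replicate 3 or young replicate 2 (limma adjusted p of 0.0588 to 0.14), as they did without the filter on dim probes. Among 10 tested genes of the other family ligands and receptor chains, 1 fell and 1 rose. Ebi3, a subunit shared by interleukin 27 and interleukin 35, averaged -0.22 ± 0.34 in old and 1.42 ± 0.50 in young samples (SD, n = 3 each), without overlap. It fell by 1.63 ± 0.29 on the log2 scale (SE, limma adjusted p = 0.0318). Ctf2, the ligand also called neuropoietin, rose by 0.47 ± 0.09 (SE, limma adjusted p = 0.0389), with -2.50, -2.52 and -2.30 in old and -2.90, -2.95 and -2.87 in young samples. That rise kept its direction but not its call under 4 other scalings, from 0.35 with the deposited values (limma adjusted p = 0.0606) to 0.44 with scaling to the array median (0.0523).

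Among 6 other receptor chains that signal through Stat3, 2 fell and 1 rose. Il10ra, which binds interleukin 10, fell by 1.64 ± 0.33 on the log2 scale (SE, limma adjusted p = 0.0397; -0.98 with normexp), with -1.72, -2.43 and -1.67 in old and -0.66, -0.58 and 0.34 in young samples. Il21r, the interleukin 21 receptor, fell by 1.38 ± 0.30 (SE, limma adjusted p = 0.0474) and was well above background on 1 of 3 old arrays. With normexp its value was -0.25 and the call ended. Lepr, the leptin receptor, rose by 1.02 ± 0.14 (SE, limma adjusted p = 0.0251). Its other probes were too rarely above background to be tested.

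Of 24 tested kinases, adaptors, phosphatases, Stat factors and inhibitors, 1 fell and none rose. Socs2, an inhibitor best known from growth hormone signalling, had a signal at least 1.59-fold lower in old samples (limma adjusted p = 0.027). It passed the filter through the young arrays alone, so its place among the falls is no support for one, and its log2 fold change was 0.03 with normexp. Both further Socs2 probes had negative log2 fold changes, -1.60 and -1.52, and neither was called. The kinases that carry the gp130 signal, named here for their role with their values known, did not pass the test. Jak1 differed by 0.01 ± 0.08, Jak2 by -0.005 ± 0.09 and Tyk2 by -0.53 ± 0.16 on the log2 scale (SE; limma adjusted p = 0.968, 0.978 and 0.0938).

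Of 24 tested classic Stat3 target genes 5 fell, none rose, and 21 had negative fold changes, with a median of -0.73, against 0.07 over all tested genes. The 5 falls are set against 4.04% of all tested genes called lower. The immediate early transcription factor gene Fos was 1.22, 0.99 and 0.60 in old replicates 1 to 3 and 2.44, 2.75 and 2.87 in young replicates 1 to 3, and fell by 1.75 ± 0.19 on the log2 scale (SE, limma adjusted p = 0.0208). Junb, its partner in the AP-1 factor, fell by 1.12 ± 0.19 (SE, limma adjusted p = 0.0307). Falls were also called for the death receptor gene Fas (-2.48 ± 0.31, well above background on 1 of 3 old arrays), the transcription factor gene Nfil3 (-1.92 ± 0.32) and the NF-kB cofactor gene Bcl3 (-1.84 ± 0.36), with limma adjusted p of 0.0222, 0.029 and 0.0385. All 5 genes are also induced by other signals. Young replicate 3 had the highest young value in 20 of the 24 genes, as it had in all 12 leukocyte markers. With normexp the log2 fold changes were smaller and the calls held, at -0.78 for Fas, -0.61 for Junb, -1.26 for Nfil3 and -1.19 for Bcl3. Without young replicate 3 those of Nfil3 and Bcl3 were -1.59 (limma adjusted p = 0.0491) and -1.47 (0.0607).

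Proteins that bind or cut Il6 messenger RNA were measured although Il6 itself was not. Of 10 tested, 2 fell. Arid5a, which stabilises the Il6 transcript, was 0.05, -0.22 and -0.31 in old replicates 1 to 3 and 1.05, 1.13 and 1.66 in young replicates 1 to 3, and fell by 1.44 ± 0.19 on the log2 scale (SE, limma adjusted p = 0.0231). Zfp36, which encodes tristetraprolin, a protein that promotes decay of cytokine transcripts, fell by 1.81 ± 0.37 (SE, limma adjusted p = 0.0397; -0.75 with normexp). Their roles in Il6 decay are opposite, and the median of the list was 0.01.

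The 5 genes most like Il6ra over the 6 arrays were sought among 13021 tested genes with a symbol, by the root mean square difference of values centred on each gene's own mean. They were Cobll1 (0.0365 log2 units), Kbtbd11 (0.0618), Spata13, a guanine nucleotide exchange factor gene (0.0909), Parp8 of the poly(ADP-ribose) polymerase family (0.0964) and Tcstv3 (0.1). Cobll1 read -3.67, -4.20 and -3.93 in old replicates 1 to 3, with a log2 fold change of -1.69, and was well above background on 1 of these 3 arrays. The others had log2 fold changes between -1.79 and -1.54, and Tcstv3 was not well above background on any old array. With normexp the calls of Cobll1 (-0.40, limma adjusted p = 0.0892) and Tcstv3 (0.994) ended, and the log2 fold changes of Spata13 and Parp8 were -0.49 and -0.86. With the mean over all probes of a gene those of Cobll1 and Kbtbd11 were -0.94 (limma adjusted p = 0.0708) and -0.97 (0.0482). Genes were ranked on likeness to a gene with a large difference between the ages, so their own differences follow from the choice.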

How the data were processed

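The scanner output deposited by the authors gives spot intensities from Agilent Feature Extraction; per the file headers the version was 10.7.3.1, whereas the submitters' processing notes name 10.5.1.1. Per the file headers the processed intensity is corrected for background and spatial trend within the array. A second deposited table holds the authors' log2 values of 52095 probes, and the sources used here do not name its scaling between arrays. Its column medians were 4.94, 4.92 and 4.87 for old and 4.91, 4.92 and 4.95 for young samples, and it correlated with the log2 processed intensity of each array at 0.9986 to 0.9992.

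Control and outlier spots were left out, repeated spots averaged on the log2 scale, and each array's 75th percentile subtracted. A probe with repeated spots counted as well above background when at least 50% of its spots were. Accessions were matched, without version, to RefSeq symbols of GRCm38.p6 (26413 of 55681 probes, 97.9% of those with an NM accession). Upstream sequences come from RefSeq on the same assembly, and 9 of the 10 members had one. The 2 ages were compared by limma 3.58.1 (lmFit, eBayes) in R 4.3.3 without covariates, with Benjamini-Hochberg adjustment over all tested genes at 0.05. Python 3.11.15 and pandas 2.3.3 read the files. Members and lists were chosen with earlier results of these data known. Named genes were all members, up to 5 called genes of each list by smallest p, and the 5 genes most like the member with the smallest p. In 5 simulated sets of old against young arrays, where 200 of 23246 genes were altered, the test found 62.0% of those altered by 1 log2 unit and 87.8% of those altered by 2. The simulated noise was normal and independent between genes, so shifts shared by many genes of an array were left out. These shares may therefore not hold for the real arrays. Nothing says that samples came from separate animals, so p-values measure only the spread between these samples, which may be technical. The number of arrays limits the precision.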

Additional observations from a re-analysis of the deposited data

How the results depend on the processing

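Over all tested genes the number of calls was 1864 with the main settings, 2911 with normexp, 3280 with eBayes with trend, and 1 to 1154 when 1 array was left out (limma). These were 1154 without old replicate 1, 1 without old replicate 2, 5 without old replicate 3, and 768, 63 and 321 without young replicates 1, 2 and 3. Without the filter on dim probes 0 genes passed (11662 at an unadjusted p under 0.05), and with the replicate number as a block 0 genes passed (5554 unadjusted). Of the family members 2 were called with the main settings, 1 each with quantile normalization, cyclic loess, the deposited values and the filter for all 6 arrays (which removes Il6st), 3 each with eBayes with trend, the mean over all probes and every probe on its own, 0 without the filter and 0 with the replicate block (4 unadjusted in each), and 0 to 1 with 1 array left out. With the block the limma adjusted p was 0.0895 for Il6ra and 0.138 for Il6st. Of the pathway genes 13 were called, 21 with normexp, 21 with eBayes with trend, 0 without the filter (29 unadjusted), 0 with the block (26 unadjusted) and 0 to 8 with 1 array left out. Same-numbered old and young samples did not deviate together (r = -0.03 to 0.02 over genes), and no sample correlated best with its own number. The values thus gave no sign that the numbers pair the samples. They cannot exclude a pairing, because the 3 deviations of a group sum to 0 in each gene.

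The direction turned for Lifr (0.17) and Socs2 (0.028) with normexp, and for Stat3, which lies near 0, with 1 array left out (-0.096 to 0.041). The other 113 of the 117 alternative values of members kept their sign. Normexp was run on median signals, since the files hold no mean signal, and was chosen after seeing the files. The cause of these differences was not tested. Low signal limits what can be said of Il6, Lif and Osmr, and of Il6st and Lifr in old samples.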
